A study of Mus musculus with 6 samples.

Results

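The 9 genes described here encode complement proteins and their receptors: the C1q chains C1qa, C1qb and C1qc, the components C3, C4b and factor B (Cfb), properdin (Cfp), and the anaphylatoxin receptors C3ar1 and C5ar1. They were found by symbol in the deposited gene tables and joined across libraries on their Ensembl identifiers. Each had 1 identifier in all 6 libraries, so 9 of the 30406 genes shared by the libraries are members.

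The cells were live CD45-positive immune cells sorted from mammary tumours, which female mice had grown for 4 weeks from Py8119, a mouse mammary tumour cell line that all groups received. The droplet 3′ libraries number 6, with 1 per group and about 15000 cells loaded for each. The groups were intact mice that were knockout (KO) for Mtdh or wild type (WT), and irradiated mice that carried transferred bone marrow: KO marrow in a KO host, KO marrow in a WT host, WT marrow in a KO host and WT marrow in a WT host. Marrow was transferred 8 weeks before the tumour cells were injected. Irradiation can leave some of the host's own immune cells in place, and the labels give neither the share of donor cells nor the number or age of the mice behind a library. A group here is therefore 1 library, and p-values measure only the spread between these libraries, which may be technical.

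Complement is a cascade of proteins that tag and lyse targets and call in leukocytes. C1q binds antibody or damaged surfaces and starts the classical route, in which C4 and then C3 are cleaved and deposited. In the alternative route factor B joins deposited C3 to form an enzyme that cleaves more C3, and properdin holds that enzyme together. The fragments C3a and C5a act on the receptors C3ar1 and C5ar1 of myeloid cells. Tissue macrophages are a known source of C1q outside the liver.

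Cells were classed by marker UMIs (unique molecular identifiers, which count captured RNA molecules) with no complement gene in any gate. A macrophage had at least 3 UMIs of Adgre1 and Csf1r together and none of Cd3d, Cd3e or Cd3g. After filters 37992 cells remained, with a median of 10544 to 19071 UMIs per cell in a library. Cells that met no gate made up 12.2% to 37.4% of a library, and monocytes had no gate of their own. Macrophages numbered 3905 in intact KO, 5365 in intact WT, 3082 with KO marrow in a KO host, 3402 with KO marrow in a WT host, 4170 with WT marrow in a KO host and 3987 with WT marrow in a WT host. All 5 macrophage markers were detected in each library's macrophages, with a summed level of 1489 to 1991 CPM (the usual library-size scale, a gene's UMIs relative to all UMIs of the summed cells). Any 2 libraries shared 8 to 25 cell barcodes, at most 0.348% of the smaller library. Mtdh checked the labels: its level in macrophages was 18.7 CPM in intact KO, 117 in intact WT, 13.8 with KO marrow in a KO host, 30.9 with KO marrow in a WT host, 120 with WT marrow in a KO host and 121 with WT marrow in a WT host.

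The C1q chains varied little across libraries. They lie side by side on the minus strand of chromosome 4 (GRCm38, GENCODE annotation): C1qb at chr4:136880129-136886187, C1qc at chr4:136889804-136893065 and C1qa at chr4:136895917-136898803, a span of 18.7 kb. In macrophages the C1qa level was 4023 CPM in intact KO, 4821 in intact WT, 4976 with KO marrow in a KO host, 4940 with KO marrow in a WT host, 5292 with WT marrow in a KO host and 4276 with WT marrow in a WT host. The groups overlapped: 1 of the libraries from fully KO mice was the lowest and the other lay among the rest. C1qb ran from 4686 to 5928 CPM and C1qc from 2753 to 3489 CPM, and both were lowest in intact KO. The ratio of C1qa to C1qb stayed between 0.833 and 0.935, and that of C1qc to C1qb between 0.566 and 0.617. The exact Poisson 95% interval of C1qa was 4009 to 4037 CPM in intact KO and 4809 to 4834 in intact WT, so the spread between libraries was wider than counting error.

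Promoter sequences were taken from RefSeq (GRCm38.p6), which held entries for 6 members: C1qb, C1qc, C3, Cfp, C3ar1 and C5ar1. The 250 bases before the start site are shown for the neighbouring genes C1qb and C1qc, whose levels moved together, and for C3, whose level did not follow them. The start sites are those of RefSeq, and that of C1qc lies inside the longer annotated gene above. The stretches lie at chr4:136886201-136886450, chr4:136892915-136893164 and chr17:57228137-57228386, all on the minus strand and written 5′ to 3′, with capitals marking matches on either strand to GAGGAA (the PU.1 core) or TTGCNNAA (a C/EBP motif).
C1qb: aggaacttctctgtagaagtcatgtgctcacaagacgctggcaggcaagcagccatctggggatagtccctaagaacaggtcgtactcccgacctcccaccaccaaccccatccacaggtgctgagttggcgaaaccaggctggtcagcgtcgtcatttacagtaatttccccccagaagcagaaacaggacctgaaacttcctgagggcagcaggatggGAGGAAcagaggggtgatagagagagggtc
C1qc: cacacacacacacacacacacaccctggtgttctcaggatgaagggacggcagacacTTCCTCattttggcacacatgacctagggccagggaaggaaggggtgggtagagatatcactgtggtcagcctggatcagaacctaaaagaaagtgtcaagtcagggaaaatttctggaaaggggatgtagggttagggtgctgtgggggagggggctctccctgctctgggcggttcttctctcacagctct
C3: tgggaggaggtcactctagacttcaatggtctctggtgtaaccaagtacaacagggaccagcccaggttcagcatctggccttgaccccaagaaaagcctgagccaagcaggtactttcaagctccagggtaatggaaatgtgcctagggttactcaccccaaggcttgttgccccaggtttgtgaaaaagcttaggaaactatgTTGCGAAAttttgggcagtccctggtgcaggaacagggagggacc
GAGGAA matched C1qb 1 time, with its first base at -30 from the start site, and C1qc 1 time at -193, and 23.4% of 32536 promoter stretches of this length held it. TTGCNNAA matched C3 1 time at -45, and 9.57% of the stretches held it. TTCNNNGAA, the GAS element, had no match in the 6 promoters (7.04% of all), nor had GAAANNGAAA, the ISRE (2.98% of all). A match is a string of letters and not a measured binding site.

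C1q separated macrophages from the other classes. The 3 chains together reached 11462 to 14438 CPM in macrophages. In CD8 T cells, which should lack them, they stood at 3.03% to 4.21% of the macrophage level of the same library, a median of 3.94%. Free RNA in the droplets gives such UMIs, and the level in CD8 T cells is taken here as that background. Mesenchymal-like cells (median 2.57%), NK cells (3.08%), cDC1 (3.50%) and mature dendritic cells (3.73%) had medians below that of CD8 T cells, and CD4 T cells (4.45%) and B cells (4.94%) stood just above it. Neutrophils were higher, at 3.75% to 9.68% with a median of 7.64%, as were cDC2 at 4.55% and 7.97% in 2 libraries. Neutrophils were also the shallowest of these cells, with medians of 2033 to 3197 UMIs against 5575 to 9403 in CD8 T cells, and the part of depth in their C1q was not tested. The gates differed too: T, NK and B cells held no UMI of Adgre1 or Csf1r. Neutrophils, dendritic cells and mesenchymal-like cells could hold any number under 3 of the pair. The part of this difference in the C1q levels was not tested. At 1 depth of 2000 UMIs per cell, the median macrophage held 23 C1q UMIs in intact KO, 29 in intact WT, 29 with KO marrow in a KO host, 30 with KO marrow in a WT host, 31 with WT marrow in a KO host and 25 with WT marrow in a WT host. Macrophages with no C1q UMI at that depth made up 1.44% to 3.10%. The quartiles were 14 and 32 C1q UMIs in intact KO and 20 and 37 in intact WT.

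**Figure D1:**
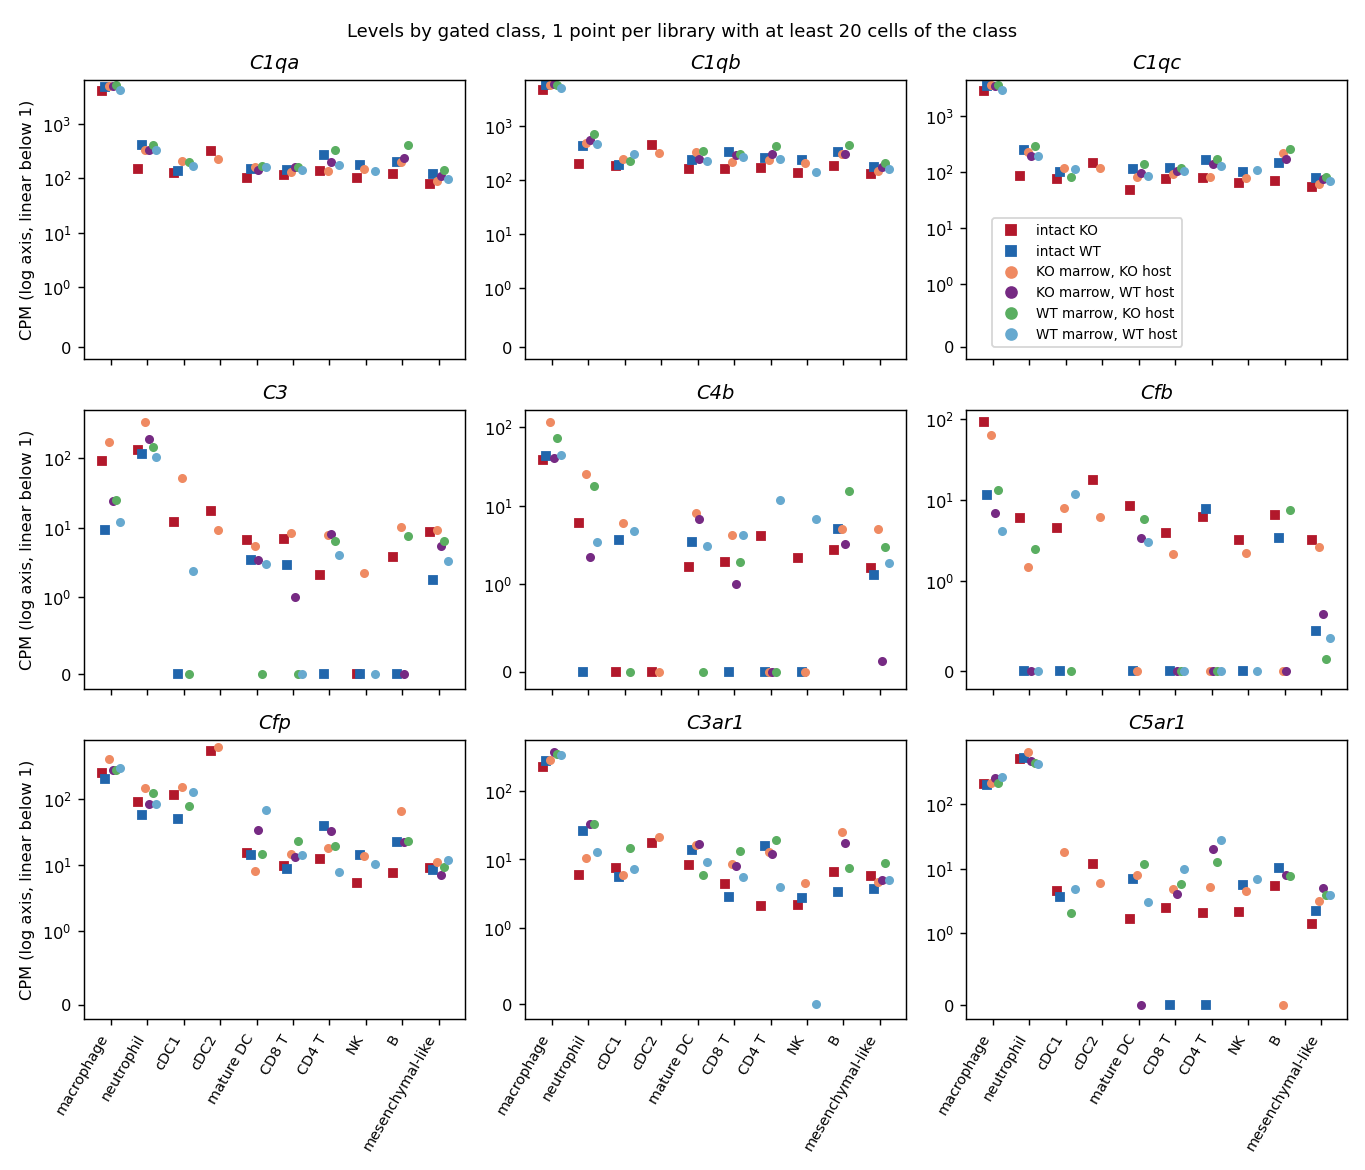
Level of each member (CPM of summed UMIs, log axis that is linear below 1) in 10 gated classes, with 1 point per library that had at least 20 cells of the class. C1q and C3ar1 are highest in macrophages, C3 and C5ar1 in neutrophils and Cfp in cDC2.

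Across classes, most members were macrophage genes, with 3 exceptions. Each class was compared with the macrophages of the same libraries in an edgeR quasi-likelihood fit over 9973 genes, with library as a block and a Benjamini-Hochberg adjusted p under 0.05 as the threshold. Of 81 contrasts (9 members in 9 classes), 78 were lower than in macrophages and 3 were higher: C3 and C5ar1 in neutrophils, and Cfp in cDC2, the conventional dendritic cells of the second type. Some of the lower calls rest on classes with almost no UMIs of the gene. Cfb gave 0 or 1 UMI per library in neutrophils, and C3 gave 0 or 1 in NK cells. All 9 members were lower in B cells, CD4 T cells, CD8 T cells, NK cells, cDC1, mature dendritic cells and the few mesenchymal-like cells, which express keratin and collagen genes. The share of all genes called was large too: 58.6% in B cells, 50.5% in CD4 T cells, 63.7% in CD8 T cells, 41.9% in cDC1, 16.2% in cDC2, 51.6% in mature dendritic cells, 70.6% in mesenchymal-like cells, 63.5% in neutrophils and 48.9% in NK cells.

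C3, the central component that both routes cleave, was 6.34-fold higher in neutrophils than in macrophages (log2 2.66, SE 0.29, adjusted p = 5.95e-11, edgeR). Its neutrophil level was 131 CPM in intact KO (exact Poisson 95% interval 82.4 to 199), 114 in intact WT (71.6 to 173), 330 with KO marrow in a KO host (288 to 377), 187 with KO marrow in a WT host (149 to 232), 144 with WT marrow in a KO host (109 to 186) and 105 with WT marrow in a WT host (84.7 to 129). The neutrophil level exceeded the macrophage level of the same library in all 6, at 146% to 1254% of it. The ratio was 146% in intact KO and 191% with KO marrow in a KO host, against 571% to 1254% where host or marrow was WT. In intact KO the neutrophil interval includes the macrophage level of 90.2 CPM. The interval of the library with KO marrow in a KO host lies above those of the other 5, and with 1 library per group this has no replicate check. Neutrophils numbered 39 to 294 per library and gave 22 to 220 C3 UMIs. CD8 T cells held 0 to 8.46 CPM of C3.

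C5ar1, the C5a receptor, was 2.93-fold higher in neutrophils (log2 1.55, SE 0.19, adjusted p = 5.51e-10, edgeR). Its level there was 502 CPM in intact KO, 514 in intact WT, 629 with KO marrow in a KO host, 470 with KO marrow in a WT host, 431 with WT marrow in a KO host and 411 with WT marrow in a WT host, against 196 to 265 CPM in macrophages. No neutrophil library overlapped the macrophage libraries. C5ar1 lies at chr7:16246743-16259540, 2588 bases from C5ar2, the second C5a receptor. The C3a receptor gene C3ar1 (chr6:122847138-122856161) had no such level in neutrophils, 5.97 to 33.4 CPM against 221 to 366 CPM in macrophages (log2 -3.55, SE 0.22, adjusted p = 1.75e-19, edgeR). The 2 anaphylatoxin receptors thus differed in class: both were in macrophages, and in neutrophils C5ar1 was higher and C3ar1 lower than in macrophages.

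Properdin, the gene Cfp at chrX:20925454-20931555, was highest in cDC2 among the gated classes. The cDC2 gate was loose: any UMI of Cd209a or Flt3 and fewer than 3 of Adgre1 and Csf1r together, with exclusions by other markers. In the 2 libraries with at least 20 such cells Cfp reached 530 CPM in intact KO (25 cells) and 612 with KO marrow in a KO host (37 cells), 2.01-fold the macrophage level (log2 1.0, SE 0.29, adjusted p = 0.0130, edgeR). The call was lost without the intact KO library (log2 0.72, adjusted p = 0.276) and without the library of WT marrow in a KO host (log2 0.89, adjusted p = 0.0577). In the other 4 libraries, with 5 to 16 cDC2 each and outside the test, the level was 596, 802, 917 and 705 CPM, above the macrophages of the same library each time. The cDC1 held 49.8 to 151 CPM, 25.2% to 46.0% of the macrophage level, where CD8 T cells held 3.67% to 8.51%. Neutrophils held 57.1 to 147 CPM of Cfp (log2 -1.08, SE 0.23, adjusted p = 6.24e-05, edgeR).

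Factor B (Cfb, chr17:34856374-34862518) and C4b (chr17:34728380-34743882) had no class above macrophages in the test. Cfb reached 5.97 CPM at most in neutrophils and 17.5 CPM in cDC2. In the cDC1 of WT marrow in a WT host it stood at 11.9 CPM (exact Poisson 95% interval 3.88 to 27.9) on 5 UMIs, against 4.09 CPM in the macrophages of that library. C4b had 0 UMIs in the cDC2 of both tested libraries, where 3 counts would be 8.73 and 9.14 CPM, so the level was not detectable at this depth. Both genes lie in the complement cluster of the mouse major histocompatibility complex. C2 ends 85 bases before the start of Cfb on the same strand. C4a, a near-identical copy of C4b, lies 65209 bases away, and reads that fit both copies may be lost or misplaced. C4a was listed in the intact libraries alone, with 18 UMIs over all barcodes of intact KO and 19 of intact WT, beside 3886 and 5573 UMIs of C4b. These UMIs do not count reads lost because they fit both copies, and C4b may have been counted differently in intact and transplanted libraries, which was not tested.

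**Figure D2:**
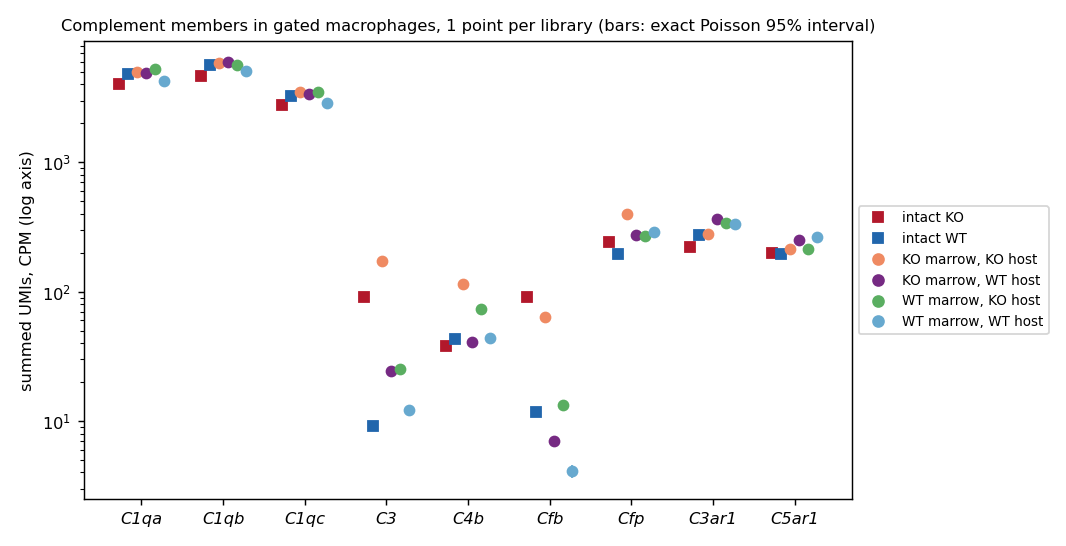
Level of each member in gated macrophages (CPM of summed UMIs, log axis), 1 point per library, with exact Poisson 95% intervals that are mostly smaller than the points. C3 and Cfb of the 2 libraries in which host and marrow were KO stand above those of the other 4, while the C1q chains and C5ar1 of the 2 lie among or beside the rest.

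The design asks whether the genotype of the host or of the marrow moved these genes in macrophages. C3 and Cfb were both highest where host and marrow were KO. C3 stood at 90.2 CPM in intact KO, 9.11 in intact WT, 173 with KO marrow in a KO host, 24.5 with KO marrow in a WT host, 25.2 with WT marrow in a KO host and 12.2 with WT marrow in a WT host. The 2 fully KO libraries did not overlap the other 4, the 2 mixed libraries were level with each other, and the 2 fully WT libraries were lowest. Cfb stood at 90.5 CPM in intact KO, 11.6 in intact WT, 63.4 with KO marrow in a KO host, 6.95 with KO marrow in a WT host, 13.2 with WT marrow in a KO host and 4.09 with WT marrow in a WT host. Its fully KO libraries too stood apart from the other 4, which overlapped between intact WT and the mixed libraries.

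Fully KO mice were compared with all others in an edgeR fit over 15133 genes with transplantation as a covariate. C3 rose 9.80-fold (log2 3.29, SE 0.30, adjusted p = 0.00422), and Cfb rose 8.50-fold (log2 3.09, SE 0.41, adjusted p = 0.0107). Cfp rose 1.48-fold (log2 0.57, SE 0.08, adjusted p = 0.00939): its level was 244 CPM in intact KO, 197 in intact WT, and 401 with KO marrow in a KO host against 275, 270 and 287 in the other transplanted libraries. Intact KO lay below those 3, so the fully KO libraries stood above the others of their own kind, intact or transplanted, and overlapped across kinds. Thus 3 of 9 members were called, all upward, where 17.1% of all genes were called (1395 higher and 1200 lower), and the members' median log2 difference was 0.09 against -0.01 over all genes. The contrast was picked with earlier results of these data in view, which the adjusted p-values leave out of account.

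Each of these calls was lost when 1 library was left out, with the direction kept. Without KO marrow in a KO host, the adjusted p (edgeR) was 0.0621 for C3, 0.154 for Cfb and 0.0686 for Cfp, with log2 differences of 3.39, 3.04 and 0.39. The Cfb call was also lost without intact KO (adjusted p = 0.0820), without intact WT (0.0995), in transplanted mice alone (0.0791) and with no filter on low counts (0.0584), at log2 differences of 3.05 to 3.08.

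The remaining 6 members did not pass the test in fully KO mice (edgeR). The log2 differences were 0.05 (SE 0.11, adjusted p = 0.803) for C1qa, 0.06 (SE 0.11, adjusted p = 0.725) for C1qb and 0.09 (SE 0.11, adjusted p = 0.630) for C1qc, which turned negative, to -0.08, -0.06 and -0.04, with no TMM scaling (scaling of library totals by a trimmed mean of gene ratios), which moved the median of all genes by -0.13. C4b differed by 0.76 (SE 0.35, adjusted p = 0.188), with 38.1 CPM in intact KO, 43.1 in intact WT, 114 with KO marrow in a KO host, 40.6 with KO marrow in a WT host, 73.0 with WT marrow in a KO host and 43.9 with WT marrow in a WT host. Its 2 fully KO libraries were the lowest and the highest of the 6. C3ar1 differed by -0.19 (SE 0.08, adjusted p = 0.136) and passed with no TMM scaling (log2 -0.32, adjusted p = 0.0307, edgeR). C5ar1 differed by 0.02 (SE 0.12, adjusted p = 0.922), which turned to -0.10 with no TMM scaling.

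A further term tested whether the fully KO difference was unlike in transplanted and intact mice, and 0.0310% of 16114 genes passed, none of them a member. For C3 the difference between the 2 settings was -0.22 (SE 0.78, adjusted p = 0.935), for Cfb 0.02 (SE 1.14, not past the threshold) and for C4b 1.32 (SE 0.62, adjusted p = 0.450, edgeR). With SEs of this size the fit cannot tell a moderate difference from none.

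Host and marrow genotype taken one at a time gave no call. In an edgeR fit with both terms, 0% of 15133 genes passed for the host and 0% for the marrow, while 556 and 536 genes had an unadjusted p under 0.05 and DESeq2 called 122 and 26. Mtdh, the knockout gene itself, did not pass for the marrow (log2 -2.33, SE 0.24, adjusted p = 0.856, edgeR). A missing call in this fit therefore cannot be read as the absence of a host or marrow difference. C3 differed by log2 1.87 (SE 0.46) between KO and WT hosts and by 1.87 (SE 0.46) between KO and WT marrow, with adjusted p-values of 1 and 0.856. Cfb differed by 2.25 (SE 0.44, adjusted p = 1, edgeR) for the host and by 1.39 (SE 0.44, adjusted p = 0.856, edgeR) for the marrow. DESeq2 placed C3 past the threshold for host (adjusted p = 0.000384) and marrow (0.00102), and Cfb for the host (4.33e-06). C3 also passed in edgeR for the host without WT marrow in a KO host (log2 2.81, adjusted p = 0.0269) and for the marrow without KO marrow in a WT host (log2 2.78, adjusted p = 0.00102). Without 1 library at a time, C3 ran from 0.87 to 2.81 for the host and from 0.88 to 2.78 for the marrow, lowest without KO marrow in a WT host and without WT marrow in a KO host, respectively. Cfb ran from 1.36 to 3.08 and from 0.49 to 2.16, lowest without the same libraries. The 3 C1q chains, C3ar1 and C5ar1 differed by 0.15 or less in either direction for host and marrow. The term for host and marrow KO beyond their sum was 1.92 for C3 (SE 0.34, adjusted p = 0.0667), 1.69 for Cfb (SE 0.55, adjusted p = 0.553) and 0.76 for Cfp (SE 0.30, adjusted p = 0.561, edgeR), and 0.242% of 16114 genes passed that test.

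**Figure D3:**
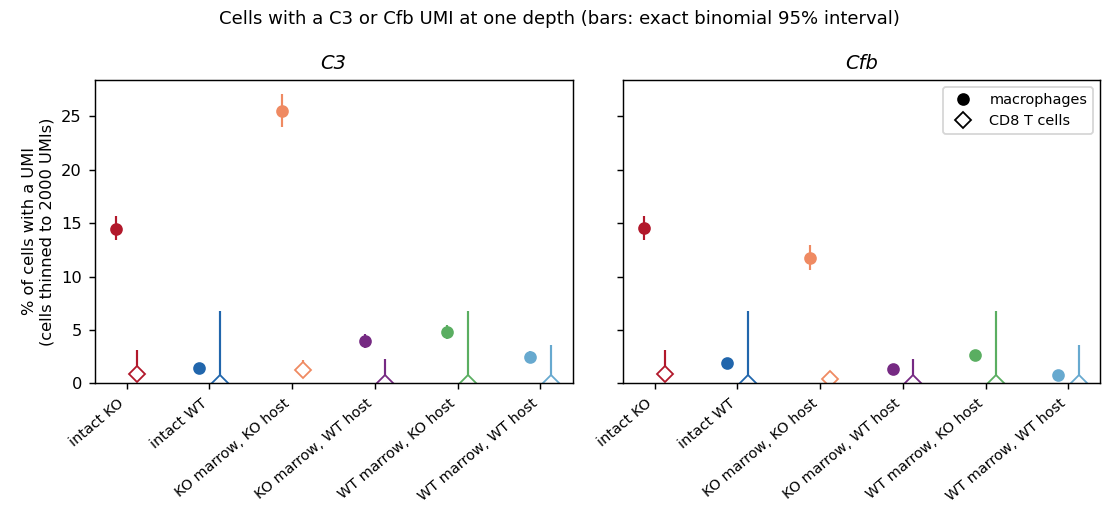
Percent of macrophages (filled) and CD8 T cells (open) with a C3 or Cfb UMI after thinning each cell to 2000 UMIs, by library, with exact binomial 95% intervals. Macrophages of the 2 fully KO libraries reach 14.5% and 25.5% for C3, and no other library exceeds 4.80%.

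More macrophages held C3 and Cfb in fully KO mice, counted at 1 depth. After thinning to 2000 UMIs per cell, C3 was seen in 14.5% of macrophages in intact KO, 1.38% in intact WT, 25.5% with KO marrow in a KO host, 3.94% with KO marrow in a WT host, 4.80% with WT marrow in a KO host and 2.49% with WT marrow in a WT host. In CD8 T cells the share was 0% to 1.2%. Cfb was seen in 14.5%, 1.91%, 11.7%, 1.29%, 2.62% and 0.805% of macrophages in the same order, and in 0% to 0.862% of CD8 T cells. In 4 libraries no CD8 T cell held either UMI, but with 53 to 159 such cells the exact binomial 95% upper bound was 2.29% to 6.72%. The macrophage shares of those 4 libraries lay below that bound, except C3 with KO marrow in a WT host (bound 2.29%), and are not told from background by this measure. Thinning left out 4 to 20 macrophages per library. At full depth (median 14079 to 20064 UMIs per macrophage) the C3 share ran from 11.7% to 62.7% and the Cfb share from 4.89% to 56.0%, with the 2 fully KO libraries again highest. C3 and Cfb were found in the same thinned macrophage 1.73 times as often as the product of their shares gives in intact KO (142 cells) and 1.59 times with KO marrow in a KO host (146 cells). The ratios of 2.51 to 2.88 in the other 4 libraries rest on 2 to 15 cells each. Cfb and C4b stood at 1.38 to 2.83 times, on 6 to 80 cells. C3ar1 and C5ar1 stood at 1.05 to 1.15 times.

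C3 and Cfb were unevenly spread over macrophages and C1q was more evenly spread. The tenth of macrophages with most C3 UMIs held 50.6% to 52.2% of them in the 2 fully KO libraries and 71.9% to 90.9% in the other 4. For Cfb that share was 47.9% and 50.9% in the fully KO libraries and 84.3% to 100% in the other 4. The 2 at 100%, KO marrow and WT marrow in a WT host, held only 374 and 270 Cfb UMIs. For C4b the share was 59.3% to 77.5% in the 6 libraries. For C1qb it was 19.7% to 24.0%, for Cfp 29.6% to 31.9% and for C3ar1 27.0% to 31.1%. A gene with fewer UMIs than cells must leave some cells at 0, and the part of low counts in the unevenness was not tested.

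**Figure D4:**
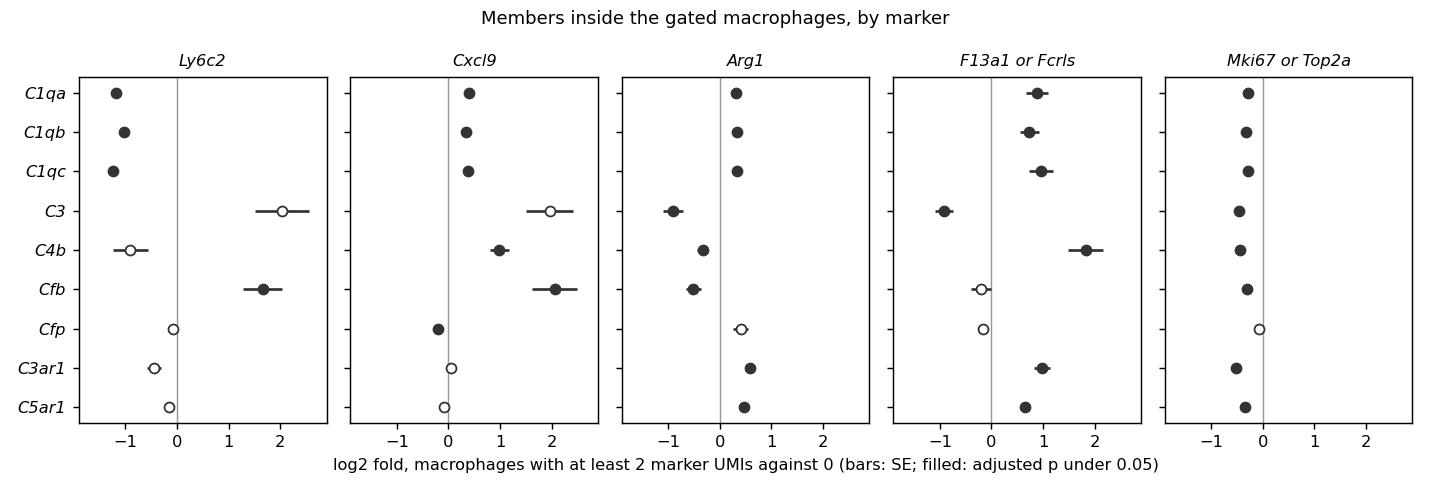
Log2 fold of each member between macrophages with at least 2 UMIs and with 0 UMIs of the marker named above each panel, from an edgeR fit over 6 libraries with library as a block, with SE. Filled points passed the threshold: C1q is lower with Ly6c2 and higher with F13a1 or Fcrls, and Cfb is higher with Ly6c2 and with Cxcl9.

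Splitting macrophages by markers that are not members showed where inside the gate each gene was found. Each split set cells with at least 2 UMIs of the marker against cells with 0, within a library. After thinning, the sides were set anew from the thinned marker UMIs, so those values rest on other cells and can rest on fewer libraries. Ly6c2 marks cells close to blood monocytes, Cxcl9 is a chemokine gene induced by interferon gamma, Arg1 encodes arginase, and F13a1 and Fcrls mark a population of tissue macrophages. The edgeR fits called 16.0% of all genes for Ly6c2, 10.9% for Cxcl9, 16.3% for Arg1, 26.4% for F13a1 or Fcrls and 50.4% for the cell cycle genes Mki67 or Top2a.

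Ly6c2-positive macrophages held less C1q and more Cfb. C1qa fell 2.28-fold (log2 -1.19, SE 0.05, adjusted p = 2.72e-16), C1qb 2.03-fold (log2 -1.02, adjusted p = 8.85e-14) and C1qc 2.36-fold (log2 -1.24, adjusted p = 4.12e-16, edgeR), each lower in 6 of 6 libraries. The C1qa level was 1699 to 2504 CPM in Ly6c2-positive cells and 4133 to 5334 CPM in the others, without overlap. Cfb was 3.16-fold higher (log2 1.66, SE 0.38, adjusted p = 0.0400, edgeR), in 6 of 6 libraries: 148 CPM against 87.9 for intact KO, 41.7 against 11.4 for intact WT, 143 against 57.5 with KO marrow in a KO host, 51.1 against 6.64 with KO marrow in a WT host, 86.9 against 12.5 with WT marrow in a KO host and 22.3 against 3.91 with WT marrow in a WT host. That call was lost without any 1 of intact WT, KO marrow in a KO host, KO marrow in a WT host or WT marrow in a WT host (adjusted p = 0.0733 to 0.10) and with no filter on low counts (0.0763). C3 was 101 to 305 CPM in Ly6c2-positive cells and 8.54 to 160 CPM in the others, higher in 6 of 6 libraries (log2 2.03, SE 0.53, adjusted p = 0.0628, edgeR). After thinning, the sides were set by the thinned Ly6c2 UMIs, and any library with fewer than 20 cells on a side was left out. C3 passed in that fit (log2 0.98, adjusted p = 0.00114, edgeR), which does not compare the same cells. At full depth the positive side held only 20 to 205 cells per library, with medians of 8213 to 13889 UMIs against 14329 to 20058 on the other side.

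Cxcl9-positive macrophages held more C1q, C4b and Cfb. They made up 54.6% of macrophages in intact KO, 4.85% in intact WT, 64.9% with KO marrow in a KO host, 4.56% with KO marrow in a WT host, 9.40% with WT marrow in a KO host and 1.33% with WT marrow in a WT host, so this share moved with the fully KO groups as C3 and Cfb did. Cfb was 4.17-fold higher (log2 2.06, SE 0.44, adjusted p = 0.0454, edgeR), in 6 of 6 libraries. C4b was 1.98-fold higher (log2 0.99, SE 0.18, adjusted p = 0.0228, edgeR), in 6 of 6 libraries. The chains C1qa, C1qb and C1qc were higher by log2 0.39, 0.35 and 0.38 (adjusted p = 0.000283, 0.000166 and 0.00174, edgeR), and Cfp was lower by a small margin (log2 -0.21, SE 0.05, adjusted p = 0.0204, edgeR). C3 was higher in 6 of 6 libraries without passing (log2 1.97, SE 0.46, adjusted p = 0.0597, edgeR). Leaving out 1 library at a time ended the Cfb call for 5 of the 6 (adjusted p = 0.0790 to 0.148; it held without KO marrow in a KO host), the C4b call for 4 (0.0557 to 0.0734) and the Cfp call for 4 (0.0501 to 0.0800), with the direction kept. With no filter on low counts the Cfb and C4b calls were also lost (adjusted p = 0.0592 and 0.0603, edgeR).

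**Figure D5:**
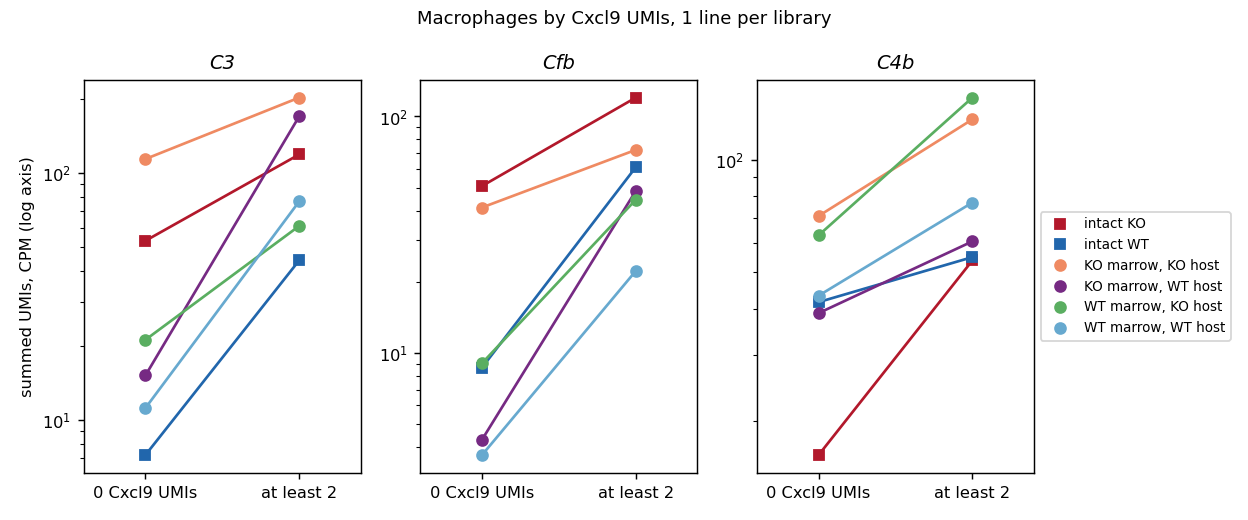
Level of C3, Cfb and C4b (CPM of summed UMIs, log axis) in macrophages with 0 and with at least 2 Cxcl9 UMIs, 1 line per library. All lines rise to the right, and on the side with 0 Cxcl9 UMIs the 2 fully KO libraries are still highest for C3 and Cfb but not for C4b.

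The fully KO difference in C3 and Cfb was also present in macrophages with no Cxcl9 UMI. There C3 stood at 53.2 CPM in intact KO, 7.22 in intact WT, 114 with KO marrow in a KO host, 15.2 with KO marrow in a WT host, 21.1 with WT marrow in a KO host and 11.2 with WT marrow in a WT host. Cfb stood at 50.8, 8.67, 41.2, 4.30, 9.05 and 3.70 CPM in the same order. Refitted on these cells alone, a choice made after the data were seen, C3 rose by log2 2.98 (SE 0.22, adjusted p = 0.00142), Cfb by 2.84 (SE 0.34, adjusted p = 0.00470) and Cfp by 0.69 (SE 0.07, adjusted p = 0.00304, edgeR). C1qa and C1qc then fell, by 0.38 (SE 0.09, adjusted p = 0.0380) and 0.36 (SE 0.09, adjusted p = 0.0424), C1qb stood at -0.31 (adjusted p = 0.0576), and C3ar1 fell by 0.36 (adjusted p = 0.0253, edgeR). On the Cxcl9-positive side C3 overlapped between the groups, with 119 and 202 CPM in the fully KO libraries and 44.3 to 170 CPM in the other 4.

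F13a1- or Fcrls-positive macrophages held more C1q, C4b and both receptors and less C3. They made up 44.0% of macrophages in intact KO and 40.4% with KO marrow in a KO host, against 83.8% to 93.2% in the other 4 libraries. C4b was 3.55-fold higher (log2 1.83, SE 0.35, adjusted p = 0.0141, edgeR): 53.8 CPM against 23.8 for intact KO, 45.5 against 5.80 for intact WT, 155 against 76.2 with KO marrow in a KO host, 46.0 against 6.81 with KO marrow in a WT host, 78.5 against 16.3 with WT marrow in a KO host and 50.9 against 5.47 with WT marrow in a WT host. C3ar1 was 1.98-fold higher (log2 0.98, SE 0.15, adjusted p = 0.00524) and C5ar1 1.58-fold higher (log2 0.66, SE 0.07, adjusted p = 0.000364, edgeR), in 6 of 6 libraries each. C3 was 1.90-fold lower (log2 -0.92, SE 0.18, adjusted p = 0.0106, edgeR), in 6 of 6 libraries. The C1q chains were higher by log2 0.74 to 0.96 (adjusted p = 0.0295 to 0.0379, edgeR), and the C1qb call was lost without intact KO (0.0554) and all 3 without any 1 of intact WT, KO marrow in a WT host, WT marrow in a KO host or WT marrow in a WT host (adjusted p = 0.0639 to 0.0886), and with no filter on low counts (0.0560 to 0.0713). The C1qb call was also lost after thinning (log2 0.42, adjusted p = 0.0775, edgeR).

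Arg1-positive cells were most macrophages, 85.5% to 94.1% in every library. They held less C3 (log2 -0.91, SE 0.19, adjusted p = 0.0135, edgeR), less Cfb (log2 -0.51, SE 0.14, adjusted p = 0.0253), less C4b (log2 -0.33, SE 0.10, adjusted p = 0.0464) and more C3ar1 (log2 0.59, SE 0.09, adjusted p = 0.000711) and C5ar1 (log2 0.46, SE 0.09, adjusted p = 0.00344). The C1q chains were higher by log2 0.32 to 0.33, and this turned to -0.06 to -0.09 after thinning. The C3 call was lost without intact KO (adjusted p = 0.0613), and the Cfb call without intact KO, KO marrow in a KO host or WT marrow in a WT host (0.0525 to 0.0920). The C4b call was lost without any 1 of intact KO, intact WT, KO marrow in a KO host or WT marrow in a KO host (0.0850 to 0.146), with no filter on low counts (0.0617) and with no doublet removal (0.0516). The C3ar1 call was lost after thinning (log2 0.16, adjusted p = 0.0540). Cycling macrophages were lower in 8 of 9 members, by log2 -0.29 to -0.52, and Cfp did not pass (log2 -0.07, SE 0.04, adjusted p = 0.149, edgeR) and stood at 0.08 with no TMM scaling, which moved the median of all genes by 0.15. Cfp passed without intact KO (log2 -0.11, adjusted p = 0.0232), and the Cfb call was lost with no TMM scaling (log2 -0.15, adjusted p = 0.0549) and after thinning (log2 -0.36, adjusted p = 0.155, edgeR).

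Markers of other cells were also summed in the macrophages. The 5 neutrophil markers summed to 107 CPM in intact KO, 67.6 in intact WT, 127 with KO marrow in a KO host and 128, 134 and 153 in the other 3 libraries, so the 2 fully KO libraries lay inside the range of the rest. The 5 monocyte markers, Ly6c2 among them, summed to 579 and 516 CPM in the fully KO libraries and 315 to 899 in the other 4. The T cell markers Cd3d, Cd3e and Cd3g were at 0 by the gate. The share of Ly6c2-positive cells did move with the fully KO groups. Ly6c2-positive cells made up 3.99% and 6.65% of macrophages in the fully KO libraries and 0.503% to 0.978% in the other 4. Without any cell that held a Ly6c2 UMI, the fully KO difference was log2 3.27 for C3 (adjusted p = 0.00554) and 3.04 for Cfb (adjusted p = 0.0113, edgeR), against 3.29 and 3.09 with them. The part of neutrophil or monocyte RNA in the C3 and Cfb levels of macrophages was not tested.

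Other genes of the pathway, 41 in all, were read from the same fits. Of the 14 initiators of the classical and lectin routes 8 were tested in macrophages, and in fully KO mice 2 rose and 1 fell (edgeR), where 17.1% of all genes were called in either direction. C1ra, a protease of the C1 complex, rose 2.93-fold (log2 1.55, SE 0.11, adjusted p = 0.00198), from 7.86 to 9.36 CPM in the 4 other libraries to 18.7 and 25.6 CPM. C1s1, its partner protease, rose by log2 1.63 (SE 0.37, adjusted p = 0.0326) at 0.264 to 1.51 CPM. Fcna, the lectin ficolin A, fell 2.13-fold (log2 -1.09, SE 0.21, adjusted p = 0.0243, edgeR).

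Of the 8 genes of the alternative and terminal steps 4 were tested, and none passed (edgeR), against 17.1% of all genes called. C9 (log2 2.95, SE 0.79, adjusted p = 0.0518) and C6 (log2 2.5, SE 0.76, adjusted p = 0.0769) belong to the membrane attack complex. C6 stood at 5.07 CPM with KO marrow in a KO host and at 0.167 to 0.866 CPM in the other 5 libraries, and C9 at 2.09 CPM in intact KO and at 0.0109 to 0.167 CPM in the other 5, so each was high in 1 library.

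Of the 11 regulators 8 were tested. Cd55, a brake on C3 cleavage at the cell surface, rose by log2 2.12 (SE 0.39, adjusted p = 0.0190) but stayed under 1 CPM in every library.

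All 8 further receptor genes were tested, and 2 rose and 3 fell, against 17.1% of all genes called. Vsig4, the complement receptor of the immunoglobulin family that binds C3 fragments, fell 24.8-fold (log2 -4.63, SE 0.53, adjusted p = 0.00722, edgeR), with 0.789 and 0.111 CPM in the fully KO libraries and 10.3 to 12.4 CPM in the other 4. Itgax and Itgb2, the chains of complement receptor 4, rose 2.39-fold (log2 1.26, SE 0.29, adjusted p = 0.0401) and 1.67-fold (log2 0.74, SE 0.09, adjusted p = 0.00670), although Itgb2 overlapped between the groups (319 and 469 CPM against 198 to 343). Itgam, the other partner of Itgb2, did not pass (log2 -0.05, SE 0.10, adjusted p = 0.799, edgeR). C5ar2 fell 1.59-fold (log2 -0.67, SE 0.11, adjusted p = 0.0140), and Cd93 fell 1.44-fold (log2 -0.53, SE 0.10, adjusted p = 0.0227, edgeR). No gene of these lists passed for host or marrow alone (edgeR), in a fit where Mtdh did not pass for the marrow either.

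The genes most like each member were found by Pearson correlation of log2(CPM + 10) over 52 sums of a class in a library, among 10791 genes, as a description of these sums, which share libraries and differ in depth. Among the genes most like the C1q chains were Apoe, Trem2 and Ms4a7 (r = 0.95 to 0.965). C3 was most like Clec4e (r = 0.911), Tarm1 and Acod1, Cfb like Gbp2b (r = 0.774), Rims2 and Zfp667, and C4b like Lilra5 (r = 0.875), AI427809 and Ms4a7. Cfp was most like Cd68 (r = 0.905), Ifi207 and Alox5ap, C3ar1 like Col14a1 (r = 0.935), Cebpa and Tlr8, and C5ar1 like C5ar2 (r = 0.956), Mgst1 and Cd14. Between members, r was 0.985 to 0.991 for pairs of C1q chains, 0.952 to 0.961 for C3ar1 with a C1q chain, 0.858 for C3 with C5ar1 and 0.350 for C3 with Cfb.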

How the data were processed

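Unique molecular identifier (UMI) counts per gene and cell were deposited by the authors as 6 matrices, made with Cell Ranger 7.0.1 for the intact and 6.1.1 for the transplanted libraries per the file headers, on mm10 per the submitters' processing notes, which also name Seurat. Version and transplantation therefore cannot be told apart, and the sources used here do not give the setting for intron reads. Raw counts were used. Kept cells had at least 500 UMIs, 200 genes and at most 15% mitochondrial UMIs, and the 6% of cells with the highest Scrublet score (scanpy 1.11.5) were removed per library: 41267 barcodes gave 37992 cells. UMIs were summed per class and library (sums of at least 20 cells) and each contrast was fitted over all genes in edgeR 4.0.16, using TMM factors, filterByExpr and the robust form of the quasi-likelihood test; p-values were adjusted by Benjamini-Hochberg, with a threshold of 0.05. Residual degrees of freedom were 2 for host and marrow, 3 for the fully KO contrast and 1 for the interaction. SEs are the log2 fold over the root of F. The fits were tested on simulated data: for the fully KO contrast 97 of 100 genes changed by log2 1 and 100 of 100 changed by log2 2 were recovered, with 7 false calls among 14868 genes. The simulation gave every gene the same fixed dispersion around the mean profile, with no library or transplantation effect. Only genes above a set level were changed. The recovery therefore checks the code and does not measure power in these data. DESeq2 1.42.0, other gates and filters, thinning to 2000 UMIs, no scaling and leaving out libraries were tried. Intervals and floors (3 counts) cover counting error only. Members, gene lists, markers and tests were chosen with earlier results of these data known. All 9 members are named in every comparison, other complement genes where they pass in a macrophage comparison, and the 3 genes most like each member. Some results that these rules would name are not reported here.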

Additional observations from a re-analysis of the deposited data

How the results depend on the processing

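The genotype contrasts could not be paired, because each group is 1 library and the labels give no replicate numbers. The class comparisons and marker splits were paired within a library, with library as a block. Dropping TMM scaling, dropping cells with Cxcl9 UMIs and the transplantation term were chosen after seeing the data, and the causes of the changes below were not tested. In the class comparisons 724 member values kept direction and side of the threshold and 5 lost the call, all in cDC2, and in the marker splits 386 kept both, 50 lost the call, 9 gained it and 5 reversed. With no TMM scaling the median of all genes moved by up to -0.47 (neutrophils), with no member reversed in a class.

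Genes called for the host, 0 as reported, numbered 122 with DESeq2, 2 with no doublet removal, 1 after thinning, 157 with the interaction added and 0 to 74 without 1 library. For the marrow, also 0, they numbered 26, 1, 1, 107 and 0 to 355 in the same order. With the interaction added, C3 passed for host and marrow (adjusted p = 0.000677 and 0.00105) and Cfb for the host (0.0383, edgeR). For the fully KO contrast the 2595 genes became 1481 after thinning, 1605 in transplanted mice alone and 1030 to 2193 without 1 library, the fewest without KO marrow in a WT host. The mesenchymal-like class had 10917 genes with no count filter, cDC2 761 to 1617 without 1 library, Ly6c2 606 and cycling 3275 after thinning, and Arg1 1556 to 2277 without 1 library.

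At full depth the C3 shares were 53.5%, 11.7%, 62.7%, 16.5%, 24.9% and 12.0%, and the Cfb shares 56.0%, 12.9%, 42.3%, 7.11%, 14.6% and 4.89%, in the order intact KO, intact WT, KO marrow in a KO host, KO marrow in a WT host, WT marrow in a KO host and WT marrow in a WT host.

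The following values reversed. In the fully KO contrast (log2), C5ar1 stood at -0.017 with no count filter, -0.015 with the stricter gate, -0.0017 with no doublet removal, -0.10 with no TMM scaling, -0.10 without Cxcl9 UMIs and -0.083 in transplanted mice alone. C1qa, C1qb and C1qc stood at -0.037, -0.015 and -0.014 after thinning, at -0.078, -0.063 and -0.038 with no TMM scaling and at -0.38, -0.31 and -0.36 without Cxcl9 UMIs, where C4b stood at -0.033. Without 1 library the ranges were -0.18 to 0.16 for C1qa, -0.19 to 0.19 for C1qb, -0.17 to 0.22 for C1qc, -0.092 to 1.24 for C4b and -0.077 to 0.12 for C5ar1. For the marrow, C1qa stood at -0.0097 with no count filter, -0.013 with no doublet removal, -0.024 after thinning, -0.063 with no TMM scaling, -0.19 without Cxcl9 UMIs and -0.0013 with the interaction added, C1qb at -0.087 without Cxcl9 UMIs, C1qc at -0.027 with no TMM scaling and -0.16 without Cxcl9 UMIs, and C4b at 0.0029 without Ly6c2 UMIs. Without 1 library the marrow ranges were -0.084 to 0.13 for C1qa, -0.039 to 0.18 for C1qc, -0.54 to 0.43 for C4b, -0.094 to 0.65 for Cfp and -0.19 to 0.12 for C3ar1. For the host, C1qb stood at 0.0043 without Ly6c2 UMIs, and C1qa and C1qc at -0.14 and -0.16 without Cxcl9 UMIs. Host ranges without 1 library were -0.013 to 0.20 for C1qa, -0.087 to 0.10 for C1qb, -0.015 to 0.20 for C1qc and -0.17 to 0.61 for Cfp. In the splits, C1qa, C1qb and C1qc stood at -0.094, -0.057 and -0.084 for Arg1 after thinning, Cfp at 0.079 for cycling with no TMM scaling, and C3ar1 ran from -0.0012 (without intact KO) to 0.11 for Cxcl9 without 1 library. Depth limits small classes: 3 counts came to 3.47 to 17.9 CPM in neutrophils, 6.22 to 23.4 in CD4 T cells and 8.73 to 42.2 in cDC2.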
